A study of Mus musculus with 4 samples.

Results

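The genes described here are 37 listed genes of cholesterol and fatty acid synthesis, with the regulators and transporters of the same lipids. They were matched by symbol to the expression table, and all 37 were found among its 23970 gene symbols. The samples were primary epidermal keratinocytes from newborn mice at passage 0, cultured without further treatment in low-calcium medium on mitotically inactivated J2-3T3 fibroblasts. The groups were 2 control libraries and 2 Ovol2-deficient libraries (Ovol2 is a zinc-finger transcription factor of epithelia). The labels also call the deficient group Mutant and SSKO. Beyond these labels, how Ovol2 was made deficient, the strain and the controls' own alleles are not given in the sources used here. Nor is it stated whether the libraries came from separate mice. The p-values therefore measure only the spread between these libraries, which may be technical. The values are FPKM, which scale the fragments of a gene by its transcript length and by the mapped fragments of the library, so levels can be compared between genes. The comparison asks how these lipid genes differed when Ovol2 was deficient.

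As background, cells build cholesterol from acetyl-CoA through the mevalonate pathway to squalene, which is closed into a ring and trimmed to cholesterol. Fatty acids are built from the same acetyl-CoA by a carboxylase and a synthase, then lengthened by elongases and given double bonds by desaturases. Both arms are driven by the SREBP transcription factors, SREBP-2 (Srebf2) mainly for sterols and SREBP-1c (Srebf1) mainly for fatty acids. Scap carries the SREBPs out of the endoplasmic reticulum when sterols are low, and the Insig proteins hold them back when sterols are high. The epidermis uses cholesterol and fatty acids, with ceramides, to build the water barrier of the stratum corneum.

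The sterol arm was lower in the Ovol2-deficient libraries as a pattern over its genes, although no single gene passed the test over all genes. The members were listed with earlier results of these data known, and they share the same libraries. The shares of all genes given beside their counts are therefore a description and not a test of the list. All 18 sterol synthesis enzymes had a log2 fold change below 0, as did 50.4% of all genes tested. Their median was -0.29, a median change in mean FPKM of -18.6%, and in 15 of the 18 both deficient values lay below both controls, as they did for 24.0% of all genes tested. The 11 fatty acid genes had a median of -0.02, with 5 lower and 0 higher without overlap, against 24.0% and 24.1% of all genes tested. Within them the desaturases Scd2 and Fads2 and the elongase Elovl6 were the low ones, while Acaca and Elovl5 lay just below the controls. The efflux transporters Abca1 and Abcg1 lay in the other direction. In limma, a linear model fitted over the 11350 genes whose FPKM averaged 1 or more, 0 of the 37 members passed an adjusted p of 0.05. Of all genes 1.35% did, 0.511% lower and 0.837% higher. At an unadjusted p under 0.05 there were 17 members lower and 1 higher, against 7.94% and 9.49% of all genes. The lower ones included 12 of the 18 sterol enzymes and 3 of the 11 fatty acid genes. The authors' deposited table, a separate comparison of the same libraries, called 5 members lower (Hmgcs1, Fdps, Srebf2, Scd2 and Elovl6) and 1 higher (Abcg1), against 2.10% and 2.33% of its genes. Fold changes given here are differences of log2(FPKM + 1), so that those of low genes come out too small. All 37 members passed the filter.

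Promoter windows are shown for 3 members, since SREBPs act on sterol regulatory elements (SRE) next to CCAAT boxes and GC boxes. Hmgcs1 and Ebp are sterol genes that were low in both deficient libraries, and Fasn is the fatty acid synthase, whose groups overlapped. The sequences are the 250 bases before the RefSeq start site on the gene's own strand (build GRCm38.p6, the same coordinates as mm10). They lie at chr13:119690101-119690350 on the plus strand for Hmgcs1, at chrX:8193513-8193762 on the minus strand for Ebp, and at chr11:120824548-120824797 on the minus strand for Fasn. Capitals mark any match on either strand to 5 motifs, which may overlap each other. The SRE was searched as TCACNCCAC, the E-box as CACGTG, the CCAAT box by the letters of its name, the GC box bound by Sp1 as GGGCGG, and the core of the Ovol site as CCGTTA.
Hmgcs1: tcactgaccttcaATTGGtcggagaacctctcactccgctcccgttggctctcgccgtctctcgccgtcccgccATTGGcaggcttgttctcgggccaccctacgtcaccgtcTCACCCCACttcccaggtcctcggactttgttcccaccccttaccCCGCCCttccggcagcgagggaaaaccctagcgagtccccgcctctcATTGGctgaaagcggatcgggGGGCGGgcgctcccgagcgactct
Ebp: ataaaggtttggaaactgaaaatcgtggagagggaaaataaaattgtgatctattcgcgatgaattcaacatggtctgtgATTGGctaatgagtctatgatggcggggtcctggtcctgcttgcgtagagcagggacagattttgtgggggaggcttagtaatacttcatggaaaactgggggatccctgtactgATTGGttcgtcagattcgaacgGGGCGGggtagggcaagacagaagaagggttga
Fasn: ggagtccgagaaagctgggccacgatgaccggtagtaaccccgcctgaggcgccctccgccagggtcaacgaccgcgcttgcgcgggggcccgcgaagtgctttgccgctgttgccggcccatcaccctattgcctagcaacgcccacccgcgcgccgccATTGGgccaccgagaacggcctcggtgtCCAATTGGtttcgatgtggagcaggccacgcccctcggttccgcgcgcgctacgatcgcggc
The Hmgcs1 window held the SRE letters at positions -137 to -129 from the RefSeq start site, with CCAAT boxes on the other strand starting at -237, -176 and -45. The GENCODE start of Hmgcs1 lies further downstream, at 119690379, so these positions depend on the start site used. Bases just after the RefSeq start were not found in a GENCODE transcript of Hmgcs1, whereas they were for Ebp and Fasn. Ebp had CCAAT boxes on the other strand starting at -170 and -55 and a GC box at -33, and Fasn had 3 CCAAT boxes between -90 and -55. Of 29 members with a window of 300 bases in the RefSeq table (250 before the start site and 50 after it), Hmgcs1 was the 1 with a match to the SRE letters, against 1.44% of 27025 genes. Natural SREs often depart from these letters, so the count says nothing about SREBP binding. A CCAAT box was present for 14 of 15 sterol arm genes with a window and 5 of 8 fatty acid genes, against 41.1% of all genes. A GC box was present for 14 of the 15 and 4 of the 8, against 38.2%. An E-box was present for 7 of the 29 members, 3 of the 15 and 1 of the 8, against 8.09%. These are short motifs, and CCAAT and GC boxes are common in promoters. The 27025 genes were not limited to those passing the filter on FPKM, which all members passed. A gene counted if any of its windows held a match, and some members have several windows. The core of the Ovol site was in 0 of the 29 windows, against 3.15% of all genes.

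The genes of the mevalonate steps did not overlap between the groups in any of 7 cases, all lower in the deficient libraries, where 24.0% of all genes tested lay lower without overlap. Their median log2 fold change was -0.32, against -0.0014 over all genes tested. Hmgcs1 (ENSMUSG00000093930.2, chromosome 13, 119690379 to 119708260, plus strand) joins acetyl-CoA to acetoacetyl-CoA to give HMG-CoA. Its FPKM was 120.5 and 118.9 in controls 1 and 2, against 92.5 and 87.9 in deficient libraries 1 and 2. The control mean was 119.7 ± 1.10 and the deficient mean 90.2 ± 3.24 (SD, n = 2 per group). The log2 fold change was -0.40, with an SE of 0.09 and a limma adjusted p of 0.0732. The control values differed by far less than the gap between the groups. In the authors' deposited table Hmgcs1 had a log2 fold change of -0.41 and an adjusted p of 0.00193.

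Fdps (ENSMUSG00000059743.12, chromosome 3, 89093588 to 89101959, minus strand) makes farnesyl diphosphate, from which both sterols and the lipid anchors of proteins are made. The controls stood at 82.2 and 89.6 and the deficient libraries at 64.7 and 54.8, with the lowest log2 fold change among the 37 members (-0.52, SE 0.11, limma adjusted p = 0.0701). Its means were 85.9 ± 5.25 and 59.7 ± 6.99 (SD, n = 2 per group). The authors' deposited table gave Fdps an adjusted p of 0.00267. The cytosolic thiolase gene Acat2, which makes the acetoacetyl-CoA that enters the pathway, stood at 21.1 and 18.7 against 14.6 and 14.2 (log2 fold change -0.44, limma adjusted p = 0.0848). The other 4 genes of these steps differed less. Mvk, mevalonate kinase, stood at 16.2 and 16.5 against 15.0 and 12.7. Pmvk, which adds the next phosphate, stood at 26.9 and 25.8 against 22.7 and 19.3. Both had the lower value in deficient library 2. The decarboxylase Mvd stood at 15.3 and 15.1 against 14.0 and 11.6. The isomerase Idi1 stood at 52.4 and 51.6 against 47.6 and 44.0 and had the smallest difference of the 7 (log2 fold change -0.18). Deficient library 2 had the lower value for all 7 genes. Without it the log2 fold changes of Mvk, Pmvk and Mvd, -0.23, -0.32 and -0.24, became -0.12, -0.21 and -0.11, and that of Mvd was -0.36 without deficient library 1.

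Among the 11 genes from squalene synthesis to cholesterol, 8 were lower without overlap (24.0% of all genes tested), 3 overlapped, and the median log2 fold change was -0.27. Fdft1, squalene synthase, which commits farnesyl diphosphate to sterols, stood at 40.5 and 37.8 against 34.7 and 30.0. Sqle, squalene epoxidase, stood at 45.1 and 49.4 against 41.6 and 38.6. Lss, which closes the ring to lanosterol, overlapped, at 29.9 and 36.5 against 32.9 and 25.5. These first 3 steps had log2 fold changes of -0.27, -0.23 and -0.18. That of Fdft1 was -0.17 without deficient library 2. That of Lss ran from -0.36 without deficient library 1 to -0.0068 without deficient library 2, and was -0.32 and -0.04 without controls 1 and 2.

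The demethylation and late steps held both the larger and the smallest differences. Cyp51, which removes the first methyl group of lanosterol, stood at 36.99 and 36.1 against 30.1 and 28.5 (log2 fold change -0.31, limma adjusted p = 0.136). Msmo1, the oxidase of the next methyl groups, stood at 72.0 and 73.6 against 61.6 and 53.5 (-0.34, limma adjusted p = 0.147). The controls of both genes were close together and above both deficient values. Nsdhl, the dehydrogenase of that complex, stood at 22.2 and 20.6 against 18.3 and 18.1. Hsd17b7, its ketone reductase, overlapped at 17.0 and 17.8 against 17.9 and 16.3. Tm7sf2, a sterol reductase, had the lowest level of the arm, at 3.14 and 2.86 against 1.94 and 2.12. Its depth was the lowest too, with a mean normalized count of 46.3 in the authors' deposited table, where its log2 fold change was -0.15 against -0.40 here. How the authors computed fold changes is not described, so these values may not be on one scale.

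Ebp, the isomerase that moves the ring's double bond, stood at 36.6 and 36.3 against 30.2 and 25.1 (log2 fold change -0.39, limma adjusted p = 0.131). Sc5d, the desaturase of the following step, overlapped at 38.8 and 38.1 against 39.1 and 36.2. Dhcr7, which makes cholesterol from 7-dehydrocholesterol, stood at 17.6 and 19.4 against 14.5 and 12.5. Its log2 fold change was -0.43 with an SE of 0.11 (limma adjusted p = 0.108), and its adjusted p in the authors' deposited table was 0.0529. The sequence of late steps thus held a flat gene, Sc5d (log2 fold change -0.03), between Ebp and Dhcr7, which were both low.

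**Figure D1:**
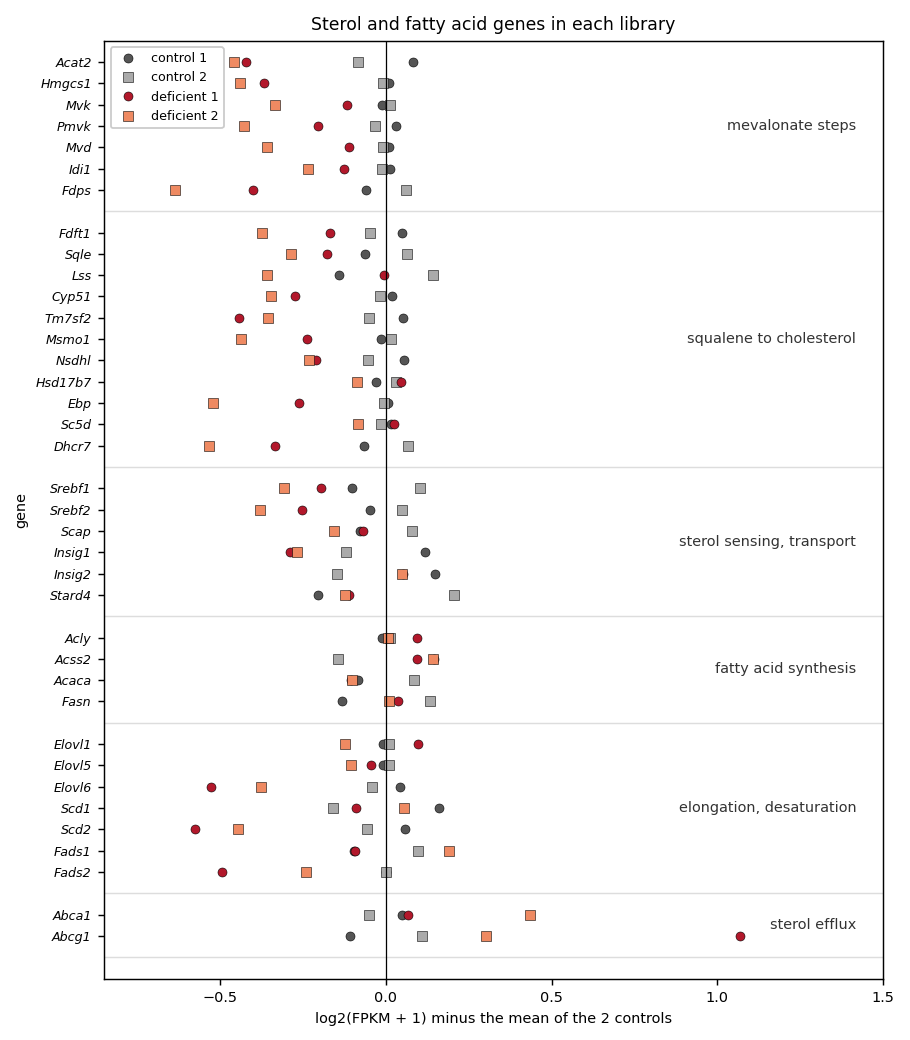
Each row is a gene and each point a library, as log2(FPKM + 1) minus the mean of the 2 controls (grey: controls, red and orange: deficient libraries, circles: library 1, squares: library 2). The deficient points lie left of both controls for all 7 genes of the mevalonate steps and for 8 of 11 genes from squalene to cholesterol, and right of them for Abca1 and Abcg1.

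The sterol arm differed in size between the deficient libraries. Relative to the control mean, its median was -0.21 in deficient library 1 and -0.36 in library 2, and 0.01 and -0.01 in controls 1 and 2. In deficient library 1 there were 16 of 18 enzymes below the control mean, and in library 2 all 18. The median log2 fold change of the arm was -0.21 without deficient library 2 and -0.36 without deficient library 1. The fatty acid arm stood at -0.09 and -0.10 in the same libraries, with 7 and 6 of 11 genes below the control mean. Its median log2 fold change of -0.02 moved to -0.09 without control 1 or without deficient library 2, and to -0.10 without deficient library 1. The difference between the arm medians of log2 fold change was -0.27. It was -0.12 without deficient library 2, which moves it by over 1.5 times. These medians carry no test, since the genes share libraries and were listed together.

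**Figure D2:**
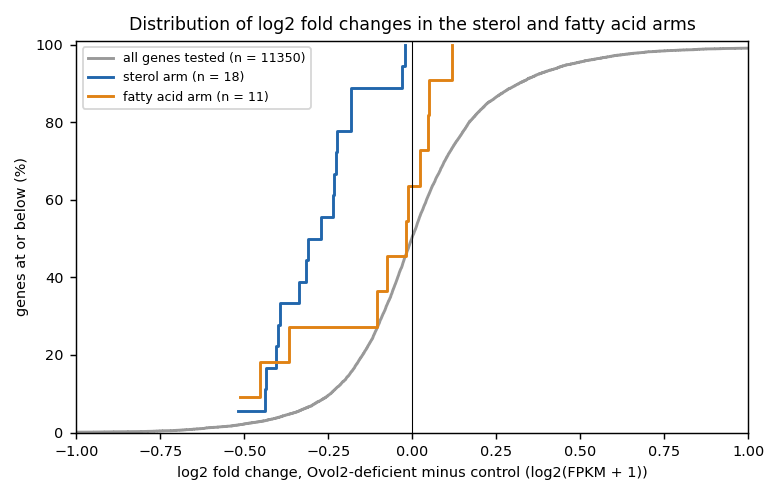
Cumulative share of genes (vertical axis, %) at or below each log2 fold change (horizontal axis, deficient minus control on log2(FPKM + 1)) for 18 sterol arm genes, 11 fatty acid arm genes and all 11350 genes tested; genes beyond -1 and 1 lie outside the plotted range. The sterol line lies wholly left of 0, while the fatty acid line meets that of all genes near 0 and has 3 members at its left end, at -0.37 or lower.

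Of the 6 genes that sense or carry sterols, 3 were lower without overlap, against 24.0% of all genes tested. Srebf2 (ENSMUSG00000022463.8, chromosome 15, 82147181 to 82205379, plus strand) encodes SREBP-2. The controls stood at 64.3 and 68.8, against 55.6 and 50.9 when Ovol2 was deficient (means 66.5 ± 3.21 and 53.2 ± 3.32, SD, n = 2 per group). Its log2 fold change was -0.32 with an SE of 0.09 (limma adjusted p = 0.148), and the authors' deposited table called it lower (adjusted p = 0.0253). Srebf1 stood at 21.8 and 25.3 against 20.3 and 18.8 (log2 fold change -0.25, limma adjusted p = 0.293), and its log2 fold change was -0.15 without control 2. Both SREBP genes lay lower without overlap, and the ratio of Srebf2 to Srebf1 overlapped between the groups, at 2.95 and 2.72 against 2.73 and 2.71.

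The Insig genes differed from each other. Insig1, itself a target of the SREBPs, stood at 26.2 and 22.0 against 19.4 and 19.8 (log2 fold change -0.28, limma adjusted p = 0.250). Its log2 fold change was -0.16 without control 1, the higher control. Insig2, its relative, overlapped at 25.6 and 20.6 against 23.9 and 23.8. The ratio of Insig1 to Insig2 was 1.02 and 1.07 in controls, against 0.815 and 0.831. Scap overlapped at 45.9 and 51.3 against 46.2 and 43.5. Stard4, which carries cholesterol through the cytosol, overlapped at 11.8 and 16.1 against 12.7 and 12.6.

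The core of fatty acid synthesis showed no common direction. Acly, which splits citrate to give cytosolic acetyl-CoA for both arms, stood at 49.1 and 50.03 against 53.0 and 49.8. Fasn, the synthase, stood at 35.3 and 42.7 against 39.8 and 39.2, so both deficient values lay between the controls. Acss2, which makes acetyl-CoA from acetate, stood at 3.40 and 2.61 against 3.25 and 3.40. Acaca, the carboxylase that makes malonyl-CoA, stood at 12.8 and 14.5 against 12.6 and 12.6, just below the controls. The log2 fold changes of these 4 genes ran from -0.10 to 0.12 and their limma adjusted p from 0.681 to 0.950. These p-values do not show that the genes were equal in the groups.

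Among the 7 elongases and desaturases, 3 were low and 4 were close to the controls. Scd2 (ENSMUSG00000025203.6, chromosome 19, 44293674 to 44306864, plus strand) puts the first double bond into saturated fatty acids and had the highest FPKM of all 37 members. The controls stood at 214.2 and 197.7 and the deficient libraries at 137.8 and 150.6 (means 205.97 ± 11.7 and 144.2 ± 9.03, SD, n = 2 per group). The log2 fold change was -0.51 with an SE of 0.10 (limma adjusted p = 0.0581, the lowest among the members). The authors' deposited table gave an adjusted p of 0.000118. Its neighbour and relative Scd1 (chromosome 19, 44394455 to 44407879, minus strand) overlapped, at 33.7 and 26.8 against 28.2 and 31.3.

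Elovl6 (ENSMUSG00000041220.10, chromosome 3, 129532355 to 129638495, plus strand) lengthens palmitate to stearate. It stood at 5.61 and 5.23 against 3.45 and 3.94 (means 5.42 ± 0.265 and 3.70 ± 0.345, SD, n = 2 per group). Its log2 fold change was -0.45 with an SE of 0.12 (limma adjusted p = 0.122), and the authors' deposited table called it lower (adjusted p = 0.0314). Fads2, the desaturase of the first step to long polyunsaturated fatty acids, stood at 48.3 and 48.2 against 33.9 and 40.7 (log2 fold change -0.37, limma adjusted p = 0.146), and its log2 fold change was -0.24 without deficient library 1. For Scd2, Elovl6 and Fads2 alike, deficient library 1 was the lower, where for every gene of the sterol arm except Tm7sf2 library 2 was.

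The remaining 3 genes of this set lay close to the controls. Fads1, the next desaturase, stood at 18.4 and 21.2 against 18.4 and 22.6. Elovl1, an elongase of very long saturated chains, stood at 57.9 and 58.6 against 62.3 and 53.4. Elovl5, an elongase of polyunsaturated chains, stood at 22.2 and 22.5 against 21.6 and 20.7, lower without overlap by a log2 fold change of -0.08 (-0.04 without deficient library 2).

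Within each library, related genes were compared as ratios of FPKM, in 5 pairs chosen after their values were seen. The ratio of Scd2 to Scd1 was 6.36 and 7.37 in controls, against 4.89 and 4.82. That of Fads2 to Fads1 was 2.63 and 2.28 against 1.84 and 1.80, and that of Elovl6 to Elovl5 was 0.253 and 0.232 against 0.160 and 0.191. Neither these ratios nor that of Insig1 to Insig2 overlapped between the groups. The two-sided exact permutation p was 0.333 for each of the 4, the smallest that libraries of this number can give, and 0.667 for Srebf2 over Srebf1. Scd1 and Scd2 are similar in sequence, so reads could have been split between them by the counting, which is not described.

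**Figure D3:**
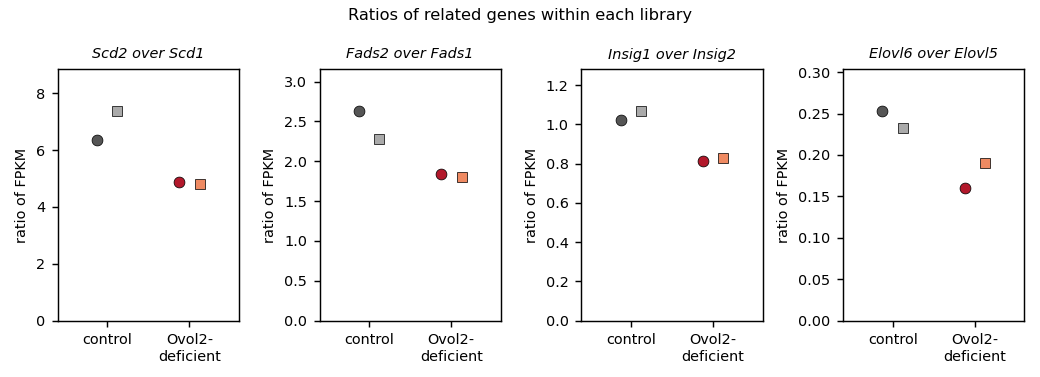
Ratio of FPKM between related genes in each library (vertical axes start at 0; dark and light grey: controls 1 and 2, red and orange: deficient libraries 1 and 2). In these 4 pairs, chosen after their values were seen, both deficient ratios lie below both control ratios. For Scd2 over Scd1 they are 6.36 and 7.37 in controls against 4.89 and 4.82.

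The sterol efflux genes, which are targets of the sterol sensors of the LXR family, lay above the controls, where 24.1% of all genes tested were higher without overlap. Abcg1 (ENSMUSG00000024030.7, chromosome 17, 31057675 to 31117988, plus strand) passes cholesterol to lipoproteins outside the cell. The controls stood at 0.980 and 1.31, against 3.48 and 1.64 when Ovol2 was deficient (means 1.14 ± 0.230 and 2.56 ± 1.31, SD, n = 2 per group). The log2 fold change was 0.69 with an SE of 0.25 (limma adjusted p = 0.228), and it was 0.30 without deficient library 1 and 1.07 without library 2, so that library 1 decided its size. The authors' deposited table called Abcg1 higher (adjusted p = 0.0215). Abca1, which loads cholesterol onto apolipoproteins, stood at 2.85 and 2.59 against 2.89 and 4.03 (log2 fold change 0.25, limma adjusted p = 0.486). Its value in deficient library 1 was barely above control 1, and its log2 fold change was 0.07 without deficient library 2 and 0.44 without library 1.

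**Figure D4:**
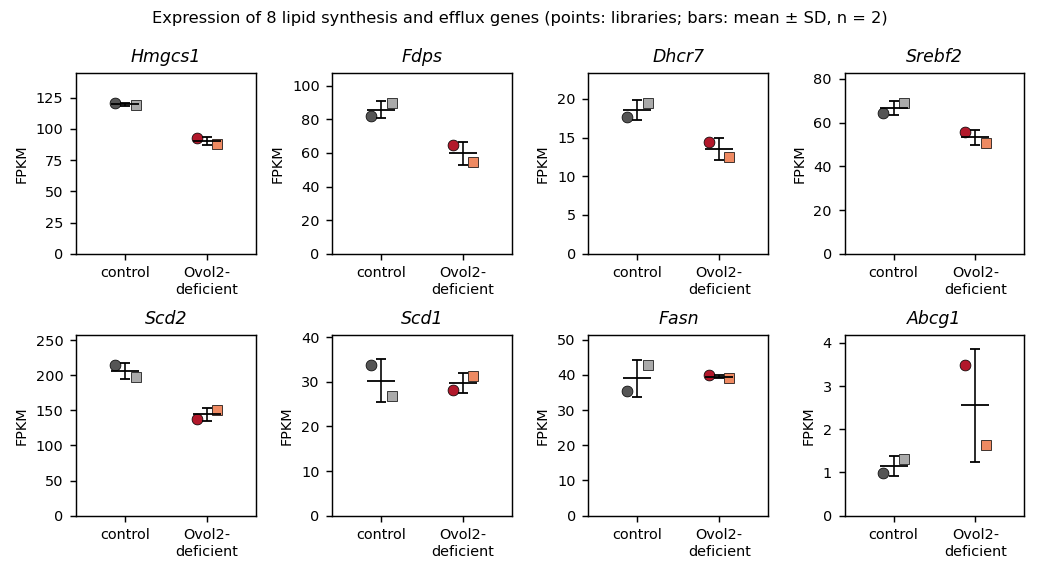
FPKM of 8 members in each library (dark and light grey: controls 1 and 2, red and orange: deficient libraries 1 and 2; black bars: mean ± SD, n = 2 per group; vertical axes start at 0). Hmgcs1, Fdps, Dhcr7, Srebf2 and Scd2 lie lower in both deficient libraries, Scd1 and Fasn overlap, and Abcg1 is spread from 1.64 to 3.48 in the deficient libraries.

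Other genes of the same pathways, 77 on 6 lists, were looked up beside the members. The table held 76 of them and 63 were tested, of which 0 passed in limma. At an unadjusted p under 0.05 there were 6 lower and 9 higher, against 7.94% and 9.49% of all genes, and the median log2 fold change was 0.01. The lower count is near the share of all genes and the higher count somewhat above it, and neither was tested as a list. Each list had members on both sides, and those farthest from 0 were as follows. In the sterol pathway, Lbr, a sterol reductase of the inner nuclear membrane, stood at 19.6 and 18.3 against 14.5 and 14.3 (log2 fold change -0.37, limma adjusted p = 0.104), and Ggps1, which makes geranylgeranyl diphosphate, at 13.5 and 12.97 against 14.7 and 14.8. Among genes of SREBP processing and turnover, Tmem97, a membrane protein that binds the cholesterol transporter Npc1, stood at 26.3 and 27.1 against 21.8 and 18.6, and Ufd1l, a factor of protein degradation at the endoplasmic reticulum, at 30.4 and 31.3 against 39.1 and 38.9. Lipa, the lysosomal lipase that frees cholesterol from its esters, stood at 13.9 and 12.9 against 17.3 and 20.6 (log2 fold change 0.46, limma adjusted p = 0.101). Stard5, a sterol carrier, stood at 19.7 and 20.7 against 15.2 and 17.3.

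Among LXR genes and targets, Apoe, the apolipoprotein E gene, overlapped at 11.5 and 21.9 against 22.0 and 19.6, and Mylip, a ubiquitin ligase, stood at 3.06 and 4.52 against 3.04 and 2.93. The efflux list outside the members therefore had no common direction. Elovl4, which makes the ultra-long chains of barrier ceramides, overlapped at 31.4 and 19.6 against 50.5 and 31.4. Tecr, the reductase of the elongation cycle, stood at 166.7 and 159.0 against 137.5 and 134.5. Dgat2, which makes triglycerides, stood at 6.03 and 5.17 against 11.7 and 8.27 (log2 fold change 0.72, limma adjusted p = 0.0836), and the authors' deposited table called it higher (adjusted p = 0.0218). Acsl3, which activates fatty acids, stood at 22.4 and 20.6 against 14.9 and 16.2 (log2 fold change -0.44, limma adjusted p = 0.0796), and the same authors' deposited table called it lower (adjusted p = 0.0369). The third gene of these lists called there was Me1, which makes NADPH for fatty acid synthesis, at 23.0 and 21.4 against 33.6 and 29.2 (higher in the authors' deposited table, adjusted p = 0.0253).

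Ovol2 itself stood at 2.68 and 2.14 in controls, against 1.45 and 0.941, without passing in limma (adjusted p = 0.129). The altered stretch of the gene is not known from the sources used here, so this level does not fully check the labels. The lowest steps in the authors' deposited table correspond to about 12400000 to 14800000 counted reads per library, if normalized totals were equal, and the members' mean normalized counts ran from 46.3 to 10726. The keratinocyte label was met by the markers, with Krt5 at up to 2960 FPKM. Other lists moved with the groups, and their part in the lipid results was not tested. In these bulk samples, fewer cells of a type and less RNA per cell cannot be told apart.

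The 12 keratinocyte markers had a median log2 fold change of -0.25, close to that of the sterol arm, with 11 below 0, 7 lower without overlap, and a summed FPKM of 7476 to 8009 in controls and 6169 to 7189 in deficient libraries. Of all genes tested, 24.0% were lower and 24.1% higher without overlap, and the marker counts here also include genes below the filter. Lamb3, a laminin chain, fell (limma adjusted p = 0.0353) and the other 11 did not pass. The median of the list was -0.18 and -0.34 in deficient libraries 1 and 2, near the -0.21 and -0.36 of the sterol arm. The 20 genes of the G2 and M phases had a median of -0.68, all 20 lower without overlap and 10 passing in limma, and summed to 559.3 to 618.0 against 340.5 to 386.1. Of 22 fibroblast or feeder markers, 20 were higher without overlap, 2 rose in limma, none was at 0 in all libraries, and they summed to 389.8 to 401.3 against 522.0 to 573.5. Of 9 melanocyte markers 8 were higher without overlap (62.9 to 68.6 against 85.2 to 91.8), and of 14 suprabasal genes 8 were (941.3 to 1512 against 1256 to 1794). Of 8 adipocyte markers 7 were higher without overlap (45.2 to 76.4 against 106.0 to 143.5), with Retn at 0 in all libraries and Adipoq at up to 0.675. Only 3 of the 8 passed the filter, and most of each sum was Fabp4. Lep, counted as higher, stood at 0 and 0 in controls against 0.020 and 0.022. Of 8 sebocyte markers 1 was higher without overlap, the list summed to 10.1 in both controls against 13.1 to 13.8, nearly all of it Soat1, and Elovl3 was at 0. The immune list (6 markers, 18.0 to 22.8 against 17.9 to 21.5, Cd207 at 0) and the endothelial list (3 markers, 3.27 to 3.72 against 3.24 to 4.27, Cdh5 at 0) overlapped.

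**Figure D5:**
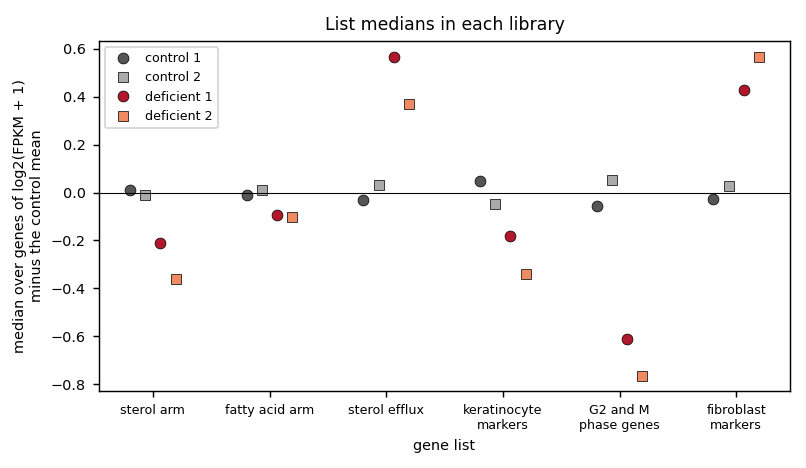
Median over genes of log2(FPKM + 1) minus the control mean (vertical axis) for 6 gene lists in each library (grey: controls, red and orange: deficient libraries). In deficient libraries 1 and 2 the sterol arm stands at -0.21 and -0.36, close to the keratinocyte markers at -0.18 and -0.34 and nearer 0 than the G2 and M phase genes, while the fatty acid arm stands at -0.09 and -0.10.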

How the data were processed

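The labels' protocols describe keratinocytes harvested before confluence with the feeder cells removed, Trizol extraction, amplified full-length cDNA and tagmentation with a Nextera kit. No strand is stated and the counting is not described, so antisense reads may count with the gene. TopHat, HTSeq and mm10 are named, without versions or roles, per the submitters' processing notes. The authors deposited FPKM for 4 libraries in 24487 rows, and the sources used here do not say how it was computed. They also deposited a comparison of mutant with control, in 24062 rows. Per the file headers, that table has a mean normalized signal, a log2 fold change and its error, a test score, and raw and adjusted p-values. Its fold changes can lie much nearer 0 than those given here, as for the suprabasal gene Lor (0.26 against 1.81). How they were computed is not described. Deficient columns carry the table's own numbers.

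Date-like symbols (27 rows) were dropped and repeated symbols summed. The test, limma 3.58.1 (R 4.3.3), was run on log2(FPKM + 1) for genes whose FPKM averaged 1 or more, with group as its term, a variance trend and Benjamini-Hochberg adjustment over all genes (threshold 0.05), and was tested on simulated data. No counts were in the files, so the FPKM branch of the design was used. Alternatives changed the normalization, pseudocount, filter, variance trend, replicate block and libraries. The 37 members and all lists were chosen with earlier results of these data known. All members are reported, and from each other pathway list the tested genes with the largest change in each direction. Coordinates are from GENCODE M21 (mm10), promoter windows from RefSeq (GRCm38.p6).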

Additional observations from a re-analysis of the deposited data

How the results depend on the processing

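The limma count of 153 genes passing over the whole table became 5 with quantile normalization, 91 with median scaling, 3 without a filter, 267 with a mean FPKM of at least 5, 6 without the variance trend, 518 with the replicate block, and 10 to 466 with 1 library left out. The count of members passing, 0, became 1 with a mean FPKM of at least 5 (Scd2, limma adjusted p = 0.0441) and 3 with the replicate block (Hmgcs1, Fdps and Scd2, limma adjusted p = 0.0378, 0.0442 and 0.0277), which passed more genes in all. The cause was not tested. Differences between library 1 and library 2 correlated at r = 0.220 across 11350 genes between the groups, but the number is not known to pair the libraries.

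With 1 library left out, the sterol arm median was -0.36 to -0.21, the fatty acid arm median -0.10 to -0.03, and their difference -0.29 to -0.12. Median scaling put the fatty acid arm at -0.036. Of 37 members, 28 kept the sign of their log2 fold change under each of the 12 alternatives in which they were tested (5 lay under a mean FPKM of 5). The other 9 changed sign only when a library was left out: Fasn (-0.11 to 0.16), Scd1 (-0.18 to 0.14), Fads1 (-0.095 to 0.19), Hsd17b7 (-0.087 to 0.045), Insig2 (-0.099 to 0.20), Stard4 (-0.32 to 0.088), Acss2 (-0.026 to 0.26), Sc5d (-0.084 to 0.025) and Elovl1 (-0.12 to 0.097). Depth limits Tm7sf2 most, at a mean normalized count of 46.3.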

Other observations

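Pparg, a nuclear receptor best known from fat cells and also present in epidermal and sebaceous cells, had an FPKM of 15.1 and 16.1 in controls, against 25.1 and 31.5 when Ovol2 was deficient. It passed in limma over all genes (log2 fold change 0.81, SE 0.12, adjusted p = 0.0419), with adjusted p from 0.0142 to 0.224 over the alternatives. The authors' deposited table called Pparg higher too (adjusted p = 0.000369). The fatty acid carrier Fabp4 stood at 58.3 and 28.4 against 75.8 and 106.4 (log2 fold change 1.12, limma adjusted p = 0.125). Its log2 fold change was 0.62 without control 2 and 1.63 without control 1. In the authors' deposited table, which may be on another scale, it was 0.36 (adjusted p = 0.402). The fatty acid transporter Cd36 stood at 1.55 and 0.376 against 2.75 and 3.18. Pparg, Fabp4 and Cd36 are all on the adipocyte marker list given above. All 18 tested fibroblast or feeder markers were also higher without overlap, against 24.1% of all genes tested. Which cells of the culture the 3 transcripts came from was not tested.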
